A study of Arabidopsis thaliana with 18 samples.

Results

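The genes described here are those named ATL (Arabidopsis Tóxicos en Levadura) with a number, 6 of the 16550 genes that had a row of their own on the arrays. They were taken by name from the platform's annotation, updated through Entrez identifiers, with no cut on their values. The family itself was chosen with earlier results of these data known. Its members here are ATL5 (AT3G62690), ATL4H (AT4G17905), ATL43 (AT5G05810), ATL63 (AT5G58580), ATL8 (AT1G76410) and ATL1F (AT1G32361). Each of the 6 was read by a single row, and 0 of these rows shared its values with another row. RefSeq uses the symbol ATL5 for 2 genes, and the row here is that of AT3G62690 and not that of the ribosomal protein gene AT3G25520. ATL2, ATL3, ATL4, ATL6, ATL9 and ATL15 were not analysed here.

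ATL proteins are a plant family of membrane-anchored ubiquitin ligases: a hydrophobic stretch holds them in a membrane, and a RING-H2 finger brings a ubiquitin-conjugating (E2) enzyme to the substrate, which is then tagged with ubiquitin. The family takes its name from members that were toxic when expressed in yeast. Some members, among them ATL2 and ATL6, are known as genes that respond fast to elicitors such as chitin, and TOLS2 belongs to the same group of secreted peptides as the immune peptide PIP1, which also acts through the receptor kinase RLK7. In the root, TOLS2 is known to limit where lateral roots are founded.

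RNA came from Arabidopsis thaliana root tips of 1 cm, about 80 pooled per sample, from seedlings 5 days old grown in continuous light. There were 18 arrays in 6 groups of 3 biological replicates: wild type, the receptor mutant rlk7-3 and the mutant puchi-2 of an AP2/ERF transcription factor, each on medium without peptide (control) and after 3 h with 1 µM TOLS2. The labels give neither the lesion of either mutant nor whether replicates came from separate plates, so p-values measure the spread between these samples, which may be partly technical. No row was named for RLK7. The PUCHI transcript was not lower on puchi-2 control arrays (5.31 ± 0.23, log2, SD, n = 3) than on wild-type control arrays (4.56 ± 0.37), so it does not check that label.

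All levels are log2 values made by the authors with RMA, in which 1 unit is a doubling, and the number of arrays limits their precision. Array medians ran from 6.19 to 6.30, and the lowest correlation between 2 arrays was 0.983. None of the 10 root tip markers listed had a row named here. Of 6 root hair markers 2 had a row, the expansin genes EXPA7 (8.75 to 9.18) and EXPA18 (10.85 to 11.21). Both were bright on all arrays, brighter than 84.9% and 97.6% of tested rows. Of 9 shoot markers 1 had a row, the rubisco activase gene RCA, which read 6.95 to 8.13 and was brighter than 68.6% of tested rows. Replicate 1 arrays stood apart from the others of their group along the second principal component, which held 12.5% of the variance, so values without them are given where they change a call.

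The 6 rows differed widely in brightness. ATL5 averaged 7.31 over the 18 arrays and lay above 65% of the tested rows. ATL4H averaged 6.89 and lay above 59.8% of them. ATL43 (5.39) and ATL63 (4.68) were of middle to low brightness, above 43.1% and 36.3% of rows. ATL8 (2.77) and ATL1F (2.25) were among the dimmest, above 12.3% and 5.98% of rows. Since each row has its own probes, these positions describe the rows and do not rank the transcripts against each other. Spread between replicates was ordinary for ATL5, ATL4H and ATL43, whose residual SDs of 0.18, 0.16 and 0.16 were near the median of all tested rows (0.16). It was 0.19 for ATL1F and 0.21 for ATL63. ATL8 had a residual SD of 0.50, larger than that of 99.2% of tested rows, so its differences are the least precise of the 6.

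**Figure D1:**
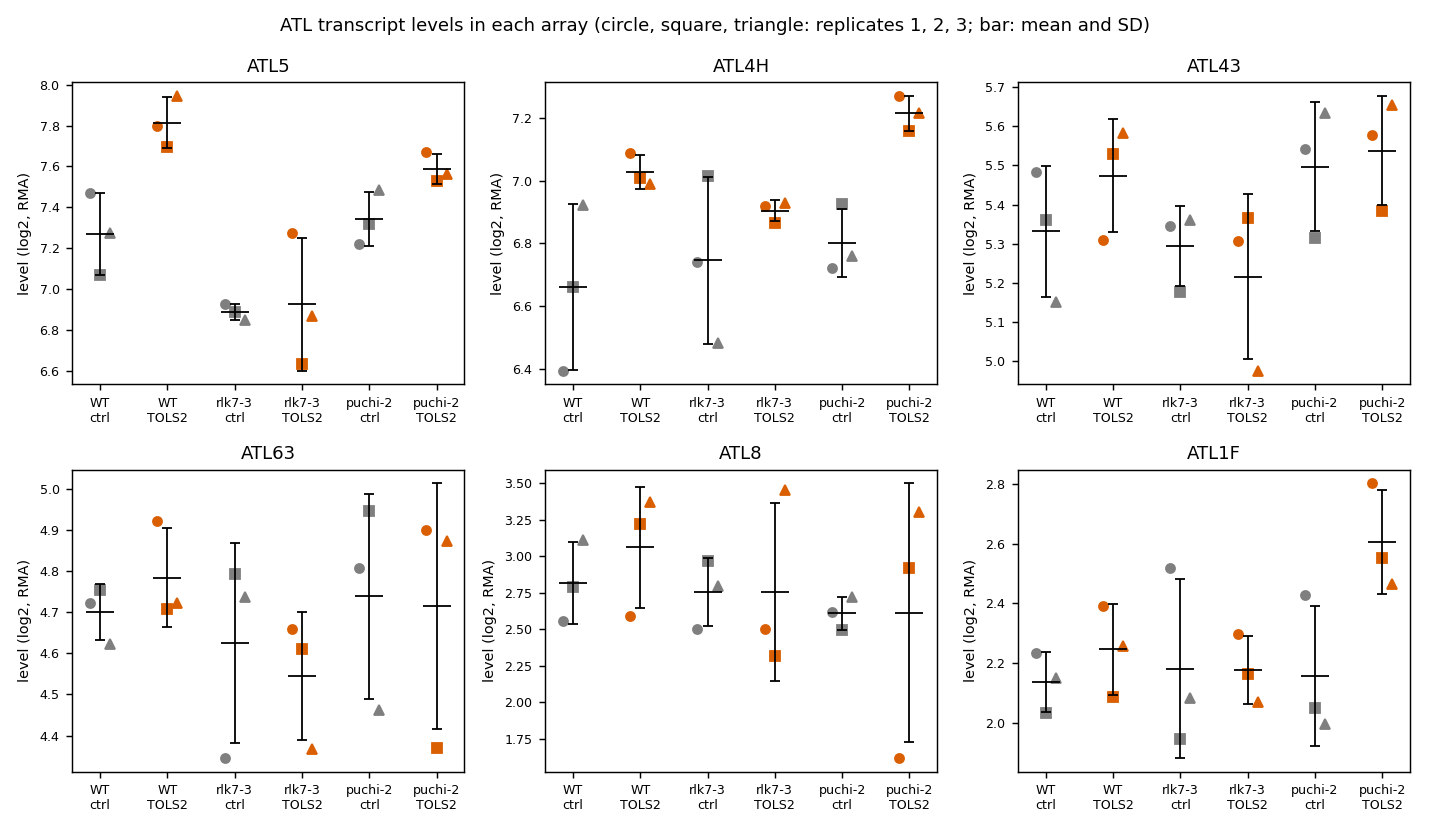
Level of each ATL transcript (log2 RMA value, vertical axis, a scale of its own in each panel) in the 6 groups (horizontal axis, grey control, orange TOLS2); circles, squares and triangles are replicates 1, 2 and 3, and bars give the mean and SD of 3 arrays. ATL5 with TOLS2 lies above control in wild type and puchi-2 with no overlap, and is lowest in both rlk7-3 groups, whereas ATL8 spans 1.62 to 3.31 within a single group.

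With TOLS2 in wild type, 0 of the 6 ATL genes passed the test (limma, Benjamini-Hochberg adjusted p under 0.05 over 17481 rows), where 1.84% of all tested rows did, and 2 of the 6 had an unadjusted p under 0.05, where 11.9% of all rows did. ATL5 came closest, with a value 1.46 times that of control, and ATL4H followed at 1.29 times. All 6 estimates were above 0, with a median of 0.19 on the log2 scale. Among all tested rows 39.3% were above 0, and their median was −0.04. The sign of all 6 held after centring of the arrays and after a renewed quantile normalization, where 37.4% and 42.8% of all rows were above 0.

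ATL5, a ubiquitin ligase known to favour seed longevity, read 7.47, 7.07 and 7.27 on the wild-type control arrays and 7.80, 7.70 and 7.94 with TOLS2. Every treated array thus lay above every control array, which held for 2 of the 6 genes (ATL5 and ATL4H) and for 6.78% of all tested rows. The difference was 0.54 (log2, SE 0.14, 95% interval 0.25 to 0.83, n = 3, limma adjusted p = 0.0622). It stood at place 372 of the 17481 rows ordered by p, just outside the 321 rows called. Over the alternatives its adjusted p ran from 0.0234 to 0.265. It was called when replicate 1 of every group was left out (0.65, limma adjusted p = 0.0440) and under 5 other settings. RCA moved in the same comparison: it fell by 0.65 (limma adjusted p = 0.0355), from 7.95 ± 0.16 to 7.30 ± 0.15 (SD, n = 3). It differed by 0.03 in rlk7-3 and by −0.51 in puchi-2, where it was not called, and its part in the ATL5 differences was not tested. In pooled tissue, more cells that express a gene and more RNA per cell cannot be told apart.

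ATL4H, for which the files give a name and no role, read 6.39, 6.66 and 6.92 on wild-type control arrays and 7.09, 7.01 and 6.99 with TOLS2. The groups did not overlap, and the control arrays were more spread (SD 0.27) than the treated ones (SD 0.05). The difference was 0.37 (log2, SE 0.13, 95% interval 0.09 to 0.64, n = 3, limma adjusted p = 0.214). With 1 wild-type array left out it ran from 0.24 (without control replicate 1) to 0.50 (without control replicate 3), and the adjusted p over all alternatives ran from 0.0853 to 0.658.

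The other 4 genes had overlapping control and TOLS2 arrays in wild type. ATL43, whose loss is known to make seedlings less sensitive to abscisic acid, read 5.48, 5.36 and 5.15 in control and 5.31, 5.53 and 5.58 with TOLS2. The lowest of the treated arrays lay between the control arrays, and the difference was 0.14 (95% interval −0.12 to 0.41, n = 3, limma adjusted p = 0.74). ATL63 read 4.72, 4.75 and 4.62 in control and 4.92, 4.71 and 4.72 with TOLS2. Here replicate 1 alone lay above the controls, and the difference was 0.08 (95% interval −0.25 to 0.42).

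ATL8, known from work on sugar starvation, read 2.55, 2.79 and 3.11 in control and 2.59, 3.22 and 3.37 with TOLS2. Replicate 1 was the lowest array of both groups, and the difference of 0.24 carried an interval from −0.54 to 1.03. ATL1F, which the files name without a role, read 2.23, 2.03 and 2.15 in control and 2.39, 2.09 and 2.26 with TOLS2. The groups overlapped, and the difference was 0.11 (95% interval −0.21 to 0.43). For ATL43, ATL63 and ATL1F these intervals reach at most 0.43 in the upward direction, so a doubling of the array value lay outside them. That of ATL8 does not leave out such a doubling. No detection limit was set, and ATL1F lay above only 5.98% of tested rows. Its interval therefore does not leave out a doubling of the transcript itself.

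**Figure D2:**
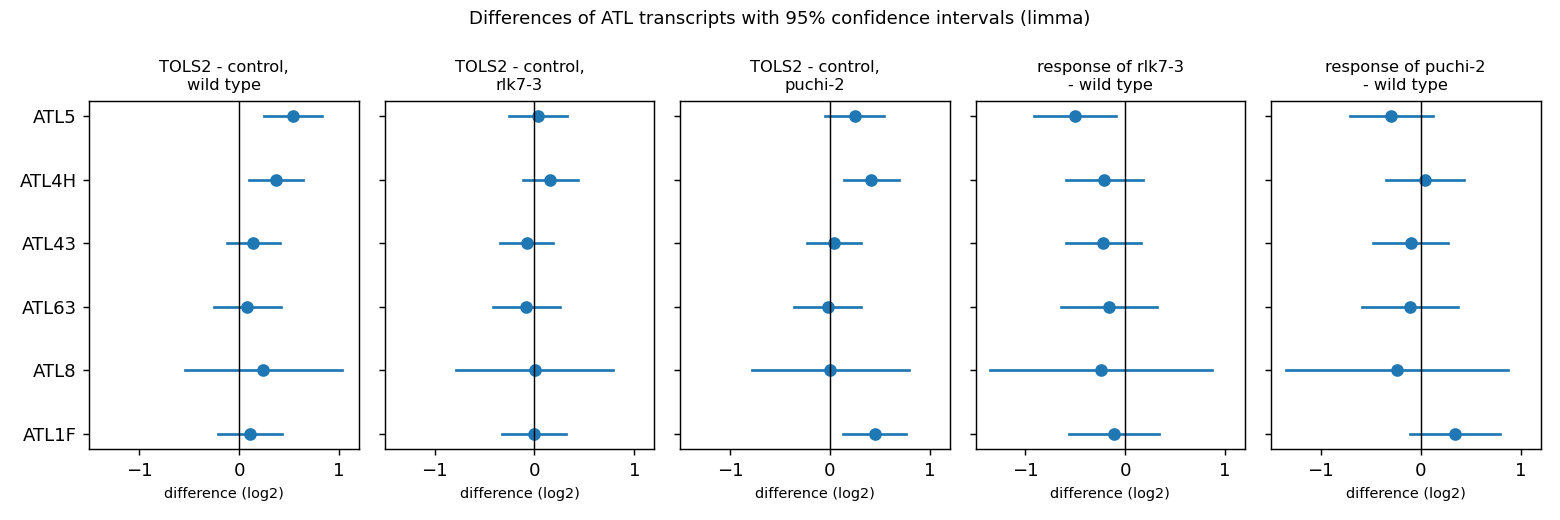
Estimated difference (log2, horizontal axis) of the 6 ATL transcripts with limma's 95% confidence interval, for TOLS2 against control in each genotype and for the difference of each mutant's response from that of wild type. Intervals of ATL5 and ATL4H lie above 0 in wild type, those of ATL4H and ATL1F do so in puchi-2, and that of ATL5 lies below 0 for rlk7-3 against wild type; 0 of these differences passed the adjusted threshold.

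In rlk7-3, the mutant of the known TOLS2 receptor, 0 of the 6 genes passed the test (limma), where 0.00572% of all rows did (1 row), and 0 of the 6 had an unadjusted p under 0.05, where 7.18% of all rows did. Of the estimates 3 were above 0 and 3 below, with a median of 0.00 beside 0.06 over all tested rows. Control and TOLS2 arrays overlapped for all 6 genes, while they did not for 12.2% of all rows. ATL5 read 6.93, 6.89 and 6.85 in control and 7.28, 6.64 and 6.87 with TOLS2. The treated arrays fell on both sides of the control arrays, and the difference was 0.04 (log2, SE 0.14, 95% interval −0.26 to 0.33, n = 3, limma adjusted p = 0.971). Its sign turned to −0.14 without TOLS2 replicate 1.

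ATL4H in rlk7-3 read 6.74, 7.01 and 6.48 in control and 6.92, 6.86 and 6.93 with TOLS2. One control array was higher than all treated arrays, and the difference was 0.16 (95% interval −0.12 to 0.43). The differences of the other 4 genes in rlk7-3 were −0.08 for ATL43, −0.08 for ATL63, 0.00 for ATL8 and 0.00 for ATL1F. ATL8 again had the widest interval, −0.78 to 0.79, and its TOLS2 arrays in rlk7-3 read 2.50, 2.32 and 3.45.

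Dependence on the receptor was tested as the difference between the response of rlk7-3 and that of wild type. For this, 0 of 6 ATL genes passed (limma), where 0.383% of all rows did, and 1 of 6, ATL5, had an unadjusted p under 0.05, where 10.5% of all rows did. All 6 estimates were below 0, with a median of −0.22, while the median of all tested rows was 0.09 and 29.6% of them were below 0. These estimates share the wild-type arrays with the wild-type response, so they do not add to it as separate evidence. The sign held for all 6 under both other scalings. The share of all rows below 0 was then 34.6% after centring and 40.6% after a renewed quantile normalization. The ATL1F estimate turned to 0.06 without rlk7-3 control replicate 1 and to 0.02 when replicate 1 was left out of every group.

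For ATL5 the estimated response in rlk7-3 minus that in wild type was −0.50 and did not pass the test (log2, SE 0.19, 95% interval −0.92 to −0.09, limma adjusted p = 0.369). It was not called under any alternative, with adjusted p from 0.115 to 0.627. The corresponding differences were −0.21 for ATL4H (95% interval −0.60 to 0.18), −0.22 for ATL43 (−0.60 to 0.16), −0.16 for ATL63 (−0.64 to 0.31), −0.24 for ATL8 (−1.35 to 0.87) and −0.11 for ATL1F (−0.56 to 0.34). For none of the 6 genes, ATL5 included, do the data separate a response that is lost in rlk7-3 from one that is kept.

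Without peptide, ATL5 did not pass the test between rlk7-3 and wild type. Each rlk7-3 control array (6.85 to 6.93) lay below each wild-type control array (7.07 to 7.47), an arrangement found in this direction in 9.46% of all tested rows. The difference was −0.38 (log2, SE 0.14, 95% interval −0.67 to −0.09, n = 3, limma adjusted p = 0.534). ATL5 was the only 1 of the 6 genes with an unadjusted p under 0.05 here, where 7.4% of all rows had one. Of the 6 genes 0 passed the test, where 0.0515% of all rows did. Differences of the other 5 between these control groups ran from −0.07 (ATL63) to 0.09 (ATL4H), with overlapping arrays.

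In puchi-2, TOLS2 gave 0 of 6 called ATL genes (limma), where 1.6% of all rows were called, and 2 of 6 with an unadjusted p under 0.05, where 12.7% of all rows had one. The pair consisted of ATL4H and ATL1F. Of the 6 estimates 5 were above 0, with a median of 0.14 beside −0.01 over all tested rows. The arrays of 3 genes (ATL5, ATL4H and ATL1F) did not overlap, all with TOLS2 higher, which was so for 7.38% of all tested rows. In the same comparison the root hair markers EXPA7 (0.23, limma adjusted p = 0.200) and EXPA18 (0.21, adjusted p = 0.291) were not called, and 2 of 2 had an unadjusted p under 0.05. Their part in the ATL4H and ATL1F differences was not tested.

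ATL4H read 6.72, 6.92 and 6.76 on puchi-2 control arrays and 7.27, 7.16 and 7.21 with TOLS2. The lowest treated array was above the highest control array by more than the SD of either group, 0.11 and 0.06. The difference was 0.41 (log2, SE 0.13, 95% interval 0.14 to 0.69, n = 3, limma adjusted p = 0.144), close to the 0.37 of wild type. The response of puchi-2 differed from that of wild type by 0.04 (95% interval −0.34 to 0.43).

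ATL1F read 2.43, 2.05 and 1.99 on puchi-2 control arrays and 2.80, 2.55 and 2.46 with TOLS2. The groups were separated by a narrow gap, with replicate 1 the highest array of each. The difference was 0.45 (log2, SE 0.15, 95% interval 0.13 to 0.77, n = 3, limma adjusted p = 0.176), beside 0.11 in wild type. The difference between these responses was 0.34 (95% interval −0.11 to 0.79, limma adjusted p = 1.00). ATL1F is the dimmest of the 6 rows. With 1 puchi-2 array left out, its difference ran from 0.35 to 0.58 and was not called, and it was called with the replicate number as a block (limma adjusted p = 0.0150).

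ATL5 in puchi-2 read 7.22, 7.32 and 7.49 in control and 7.67, 7.53 and 7.56 with TOLS2. The groups did not overlap, but the gap between them was small, and the difference was 0.25 (log2, SE 0.14, 95% interval −0.05 to 0.54, n = 3, limma adjusted p = 0.504). It was smaller than the wild-type difference by 0.29, with an interval of the change from −0.71 to 0.12. The other 3 genes differed by 0.04 (ATL43), −0.02 (ATL63) and 0.00 (ATL8) with overlapping arrays. For ATL8 the TOLS2 arrays ran from 1.62 for replicate 1 to 3.31 for replicate 3. Without that replicate 1 array, the ATL8 difference was 0.50 in place of 0.00.

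No ATL gene was called for a difference of the puchi-2 response from that of wild type (0 of 6, limma; 0% of all rows, and 0 of 6 at an unadjusted p under 0.05, where 4.05% of all rows had one). Estimates ran from −0.29 (ATL5) to 0.34 (ATL1F). Between puchi-2 and wild type without peptide, 0 of 6 were called, where 0.0172% of all rows were, and 0 of 6 had an unadjusted p under 0.05, where 6.25% of all rows did. Those differences ran from −0.21 (ATL8) to 0.16 (ATL43), with overlapping arrays for all 6 genes, where 13.2% of all rows had none.

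Ordered by mean, the levels of ATL5 went from wild type with TOLS2 (7.81 ± 0.12, SD, n = 3) to puchi-2 with TOLS2 (7.59 ± 0.07), puchi-2 control (7.34 ± 0.13), wild-type control (7.27 ± 0.20), rlk7-3 with TOLS2 (6.93 ± 0.32) and rlk7-3 control (6.89 ± 0.04). The first 3 of these groups were separate from each other, while every later pair of neighbours overlapped. For ATL4H the order was puchi-2 with TOLS2 (7.21 ± 0.06), wild type with TOLS2 (7.03 ± 0.05), rlk7-3 with TOLS2 (6.90 ± 0.03), puchi-2 control (6.80 ± 0.11), rlk7-3 control (6.75 ± 0.27) and wild-type control (6.66 ± 0.27). The 3 TOLS2 groups were thus separate from each other, whereas the lower 4 groups overlapped as neighbours. For ATL1F, puchi-2 with TOLS2 (2.61 ± 0.18) stood above wild type with TOLS2 (2.25 ± 0.15) with no overlap, and the other neighbours, from 2.14 to 2.18, overlapped. In all these orders, neighbours were set by the means themselves. Differences between genotypes under TOLS2 were not tested, and the share of all rows with such gaps was not computed.

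For ATL43, ATL63 and ATL8 no neighbouring groups in the order were separate. Group means of ATL43 lay between 5.22 ± 0.21 (rlk7-3 with TOLS2) and 5.54 ± 0.14 (puchi-2 with TOLS2). Those of ATL63 lay between 4.54 ± 0.16 (rlk7-3 with TOLS2) and 4.78 ± 0.12 (wild type with TOLS2). Those of ATL8 lay between 2.61 ± 0.11 (puchi-2 control) and 3.06 ± 0.42 (wild type with TOLS2).

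For each ATL gene, the 3 genes whose levels ran most nearly parallel over the 18 arrays were taken by Pearson's r, as a description. Since arrays share treatment groups and normalization, r within groups, after each group's mean was removed, is given too. The genes most like ATL5 were LAC16 (r = 0.94, Spearman's rho 0.98, r within groups 0.72), a gene of the laccase family of wall oxidases, AT5G12900 (0.93, rho 0.91, 0.85) and AT3G52520 (0.92, rho 0.93, 0.70). LAC16 rose with TOLS2 in wild type by 1.15 (log2, limma adjusted p = 0.00222), while AT3G52520 (0.52, adjusted p = 0.0637) and AT5G12900 (0.28, adjusted p = 0.269) were not called. In rlk7-3 these genes differed by 0.19, 0.13 and 0.11, and in puchi-2 by 0.60, 0.51 and 0.16 in the same order, with none called.

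**Figure D3:**
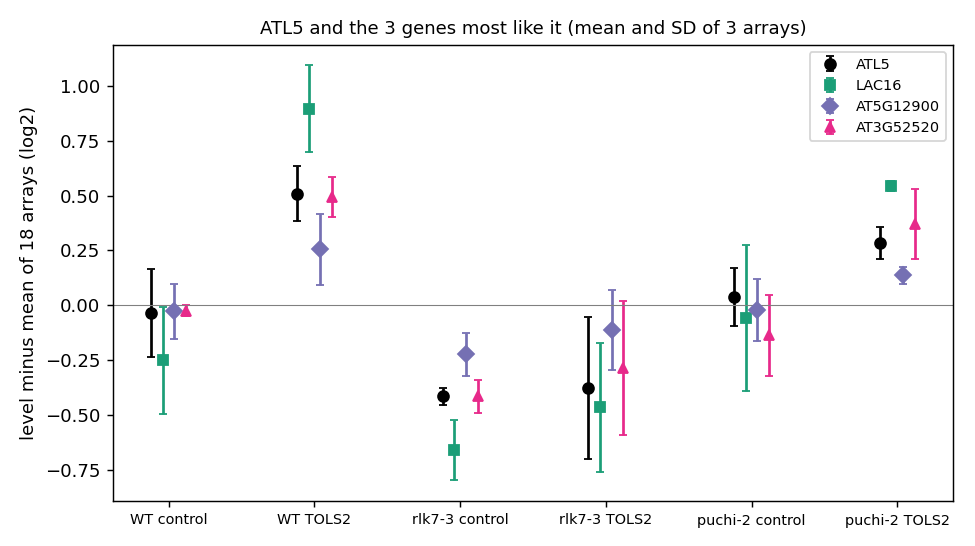
Level of ATL5 and of the 3 genes with the highest correlation to it, each as the difference from its own mean over 18 arrays (log2, vertical axis) in the 6 groups; points are means and bars SDs of 3 arrays. All 4 genes are highest in wild type with TOLS2 and lie below their mean in both rlk7-3 groups; they were chosen for this likeness.

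The nearest genes of ATL4H were AT2G20560 (r = 0.90, rho 0.87, r within groups 0.72), AT2G40200 (0.85, rho 0.80, 0.67) and AT1G53180 (0.80, rho 0.89, 0.45). Of these AT2G40200 rose with TOLS2 in puchi-2 by 0.80 (limma adjusted p = 0.0217), and the others were not called in any genotype. For ATL8 the nearest were AT1G52200, AT5G11020 and AT2G31945, with r from 0.88 to 0.89 and rho from 0.77 to 0.90. Their r within groups, from 0.89 to 0.94, was not lower. For ATL1F the nearest were AT3G16330, the cellulose synthase-like gene CSLC12 and AT1G16220 (r from 0.79 to 0.80, rho from 0.68 to 0.73, within groups from 0.59 to 0.80). For ATL43 they were AT3G58480, AT5G59110 and AT5G47290 (0.75 to 0.80, rho 0.70 to 0.77, within groups 0.61 to 0.76). For ATL63 they were AT4G10010, AT3G32280 and AT2G29600 (0.72 to 0.75, within groups 0.70 to 0.75). Their rho was lower for AT3G32280 (0.53) and AT2G29600 (0.60) than for AT4G10010 (0.73).

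Other genes of the ubiquitin pathway were measured beside the ATL genes. Of 74 other named RING ligases listed, 5 had a row (BRH1, XERICO, DAL1, LUL2 and LUL4), and 0 were called in any comparison (limma). Their wild-type differences with TOLS2 ran from −0.18 to 0.05, and 0 of 5 had an unadjusted p under 0.05, where 11.9% of all rows did. In the other 6 comparisons 3 single values had one: LUL4 with TOLS2 in puchi-2 (−0.19, where 12.7% of all rows had one), DAL1 for the puchi-2 minus wild-type response (0.28, 4.05% of rows) and BRH1 between the controls of rlk7-3 and wild type (−0.25, 7.4% of rows).

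Of 10 plant U-box ligases of the PUB group, 0 were called in any comparison (limma). With TOLS2 in wild type their median difference was 0.15, beside −0.04 over all tested rows, and 3 of 10 (PUB26, PUB24 and PUB15) had an unadjusted p under 0.05, where 11.9% of all rows did. PUB24, which with PUB22 and PUB23 is known to dampen immune signalling, differed by 0.36 (adjusted p = 0.376), PUB23 by 0.29 (adjusted p = 0.509) and PUB22 by 0.16 (adjusted p = 0.576). PUB15 differed by 0.21 (adjusted p = 0.354). PUB26, known to mark the immune kinase BIK1 for degradation, differed by 0.27 in wild type (SE 0.08, limma adjusted p = 0.142), by −0.07 in rlk7-3 and by 0.29 in puchi-2 (adjusted p = 0.114). Its response in rlk7-3 differed from that of wild type by −0.34 (limma adjusted p = 0.314). For this difference of responses 2 of 10 had an unadjusted p under 0.05, where 10.5% of all rows did. The other was PUB24 (−0.49, limma adjusted p = 0.473). PUB25 differed by 0.14 in wild type, 0.13 in rlk7-3 and −0.01 in puchi-2, unlike PUB26. With TOLS2 in rlk7-3, PUB24 differed by −0.13, PUB23 by −0.0014 and PUB22 by 0.18. With TOLS2 in puchi-2, 5 of 10 had an unadjusted p under 0.05, where 12.7% of all rows did: PUB26, PUB24, PUB23 and PUB15 with values above 0, and PUB54 at −1.54. In rlk7-3 1 of 10 had one, PUB19 at −0.42, where 7.18% of all rows did. Between the controls of rlk7-3 and wild type 4 of 10 had one, where 7.4% of all rows did. These were PUB24 (−0.64, limma adjusted p = 0.308), PUB23 (−0.39) and PUB39 (−0.22) below 0, and PUB15 (0.35, adjusted p = 0.324) above 0. Between the controls of puchi-2 and wild type, PUB24 differed by −0.51 (adjusted p = 0.621) and was the 1 of 10 with an unadjusted p under 0.05, where 6.25% of all rows had one.

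Of 20 elicitor response genes listed, 4 had a row (WRKY22, WRKY29, STZ and BIK1), and 0 were called in any comparison (limma), with 0 at an unadjusted p under 0.05. Their wild-type differences with TOLS2 ran from −0.03 to 0.26. Those in rlk7-3 ran from −0.45 to 0.08, and those in puchi-2 from −0.09 to 0.43. STZ was imprecise: against wild-type control it differed by −0.76 in rlk7-3 control and by −0.76 in puchi-2 control (SE 0.38 each). Its response in rlk7-3 differed from that of wild type by −0.71 (SE 0.54). Genes of the E1 enzymes and of the 14-3-3 proteins, which include known targets of other ATL ligases, were not analysed here.

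ATL5 was the only member whose call with TOLS2 in wild type depended on the processing. Its estimate stayed between 0.44 and 0.65 on the log2 scale under all 15 alternatives run, while its adjusted p passed 0.05 in 6 of them.

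**Figure D4:**
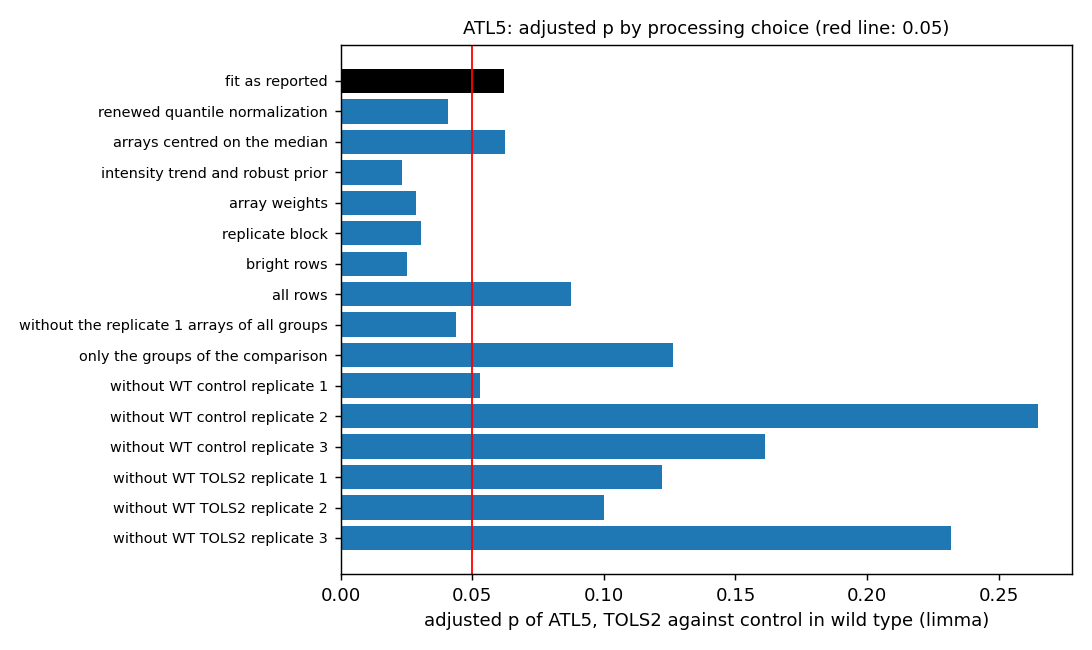
Adjusted p of ATL5 for TOLS2 against control in wild type (limma, horizontal axis) under the fit as reported (black) and under 15 alternatives (blue), with the threshold of 0.05 as a red line. Bars of 6 alternatives end left of the line, and those of the fit as reported, of the 6 fits that leave out 1 array, and of 3 others end right of it.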

How the data were processed

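Values are log2 expression levels deposited by the authors, made with RMA per the submitters' processing notes. No label or header names the version, the probe set definition or the genome build. RMA brings arrays towards a like distribution, which can hide shifts common to most transcripts. Differences between the deposited arrays remained. With TOLS2 in rlk7-3, 70.1% of tested rows were above 0 as deposited and 56.6% after a renewed quantile normalization. The values were used as deposited, without a filter. Of 38408 rows, the platform annotation gave 1 gene for 16722 and several for 759. These 17481 rows were tested, and 54.5% of rows had no gene. Names were updated by Entrez identifier with a RefSeq table (TAIR10.1), which matched 16574 rows. No array repeated another (0 pairs).

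Samples were grouped by title. Tests used limma 3.58.1 under R 4.3.3 (lmFit, eBayes, 6 group means, 18 arrays, 12 residual degrees of freedom, two-sided), adjusted by Benjamini-Hochberg over all tested rows in each of 7 comparisons, and called under 0.05. The test was run on simulated data with 200 changed rows. For TOLS2 in wild type it called 86 of 100 rows changed by 1 log2 unit and 44 of 100 changed by less. For the rlk7-3 minus wild-type response it called 66 and 21 of 100. Unchanged rows called were 11 and 4. A gene that was not called may thus still have changed. The text names every ATL gene, the 3 genes most correlated with each, PUCHI and called list members. Uncalled list members and RCA were chosen after their values were seen. The members and lists were chosen with earlier results of these data known. The result of 1 further gene list is not reported here. Alternatives covered scaling, variance model, array weights, replicate block, dim rows, all rows, and arrays left out.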

Additional observations from a re-analysis of the deposited data

How the results depend on the processing

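Of 674 ATL gene values recomputed under an alternative, 615 kept their direction and their side of the threshold, 7 became called and 52 changed sign. No value that changed sign exceeded 0.24 in size in the fit as reported, and none of them had an adjusted p under 0.808 after the change. For TOLS2 in wild type the count of called ATL genes was 1 in place of 0, each time ATL5, with a renewed quantile normalization (limma adjusted p = 0.0409), a robust prior that follows intensity (0.0234), weights per array (0.0285), the replicate block (0.0304), brighter rows alone (0.0251) and replicate 1 left out of every group (0.0440). ATL5 was not called after centring of the arrays (0.0625), over all rows (0.0877), from the 6 wild-type arrays alone (0.126) or with 1 wild-type array left out (0.0530 to 0.265). For TOLS2 in puchi-2 the count was 1 with the replicate block, which called ATL1F (0.0150). The labels do not state whether same-numbered arrays were paired. Their deviations correlated from −0.07 to 0.27. Replicate 1 arrays matched each other best in every pair of groups compared (0.07 to 0.27), so a shared replicate effect may be present. The block changed no other ATL call. Leaving out 1 array gave 0 called ATL genes in all 7 comparisons. The filter on dim rows kept ATL5 and ATL4H only, and averaging rows per gene was not run because each gene has 1 row.

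Signs turned as follows, with the cause not tested. A renewed quantile normalization gave −0.00453 for ATL5 and −0.0675 for ATL8 with TOLS2 in rlk7-3, 0.00427 for ATL63 and −0.0243 for ATL8 with TOLS2 in puchi-2. Centring gave −0.0311 for ATL8 with TOLS2 in rlk7-3. Weights per array gave −0.0501 for ATL5 and −0.0506 for ATL8 with TOLS2 in rlk7-3, −0.0505 for ATL43 with TOLS2 in puchi-2. Leaving out replicate 1 everywhere gave −0.118 for ATL5 and 0.104 for ATL1F with TOLS2 in rlk7-3, 0.0221 for ATL1F in the rlk7-3 minus wild-type response, 0.158 for ATL8 in the puchi-2 minus wild-type response, −0.0435 for ATL4H, 0.0126 for ATL43, 0.0768 for ATL63 and −0.0773 for ATL1F between the controls of rlk7-3 and wild type, −0.0675 for ATL1F between the controls of puchi-2 and wild type. With 1 array left out, differences with TOLS2 in rlk7-3 ran from −0.137 to 0.182 for ATL5, −0.153 to 0.0419 for ATL43, −0.220 to 0.00886 for ATL63, −0.347 to 0.222 for ATL8 and −0.123 to 0.164 for ATL1F. With TOLS2 in puchi-2 they ran from −0.0496 to 0.119 for ATL43, −0.162 to 0.148 for ATL63 and −0.342 to 0.502 for ATL8. In the rlk7-3 minus wild-type response they ran from −0.231 to 0.0563 for ATL1F. In the puchi-2 minus wild-type response they ran from −0.0883 to 0.177 for ATL4H, −0.246 to 0.0643 for ATL63 and −0.585 to 0.259 for ATL8. Between the controls of rlk7-3 and wild type they ran from −0.0485 to 0.219 for ATL4H, −0.127 to 0.0382 for ATL43, −0.158 to 0.0653 for ATL63, −0.195 to 0.0834 for ATL8 and −0.125 to 0.162 for ATL1F. Between the controls of puchi-2 and wild type they ran from −0.0303 to 0.171 for ATL5, −0.0657 to 0.177 for ATL63 and −0.115 to 0.101 for ATL1F.

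Counts of all rows called moved from 321 to between 174 and 576 in wild type, from 1 to between 0 and 16 in rlk7-3, from 279 to between 39 and 556 in puchi-2, from 67 to between 28 and 101 for the rlk7-3 minus wild-type response and from 0 to at most 12 for that of puchi-2. Between controls they moved from 9 to between 1 and 19 in rlk7-3 and from 3 to between 1 and 8 in puchi-2. ATL8 and ATL1F had the dimmest signals, and ATL8 the widest intervals of the 6 genes.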
